A study of Mus musculus with 6 samples.

Results

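The 38 genes described here encode enzymes of glycolysis, the tricarboxylic acid (TCA) cycle and the reactions that feed it, chosen by gene symbol from a table of 21813 symbols measured in mouse pancreatic islets. All 38 symbols were found, in 50 transcript rows, and a symbol with several rows was represented by its most abundant transcript. All 38 averaged at least 1 RPKM and were tested. RPKM, the unit of the deposited table, counts reads per kilobase of transcript and per unit of sequencing depth, so levels can be compared between genes. Islets came from 3 male Ucn3 null mice and from 3 wild-type littermates, all adults of 3 months, and each library is 1 animal. Ucn3 encodes urocortin 3, a peptide that mature beta cells release with insulin. The material is islets of mixed cell type, per the labels, so a level averages over beta, alpha, delta and other cells, and fewer cells of a type cannot be told apart from less RNA per cell. The labels do not give the strain, the kind of null allele or the tissues in which Ucn3 was lost.

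Beta cells measure blood glucose by metabolising it. Glucose is split in the cytosol by glycolysis to pyruvate, which enters mitochondria and is either oxidised through pyruvate dehydrogenase or carboxylated by pyruvate carboxylase, the entry that refills the TCA cycle (anaplerosis). The ATP made from the resulting NADH and FADH2 closes the ATP-sensitive potassium channel and triggers insulin release. Little pyruvate is turned into lactate in these cells, and shuttles carry the reducing power of cytosolic NADH into mitochondria.

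Between Ucn3 null and wild-type islets, 0 of the 38 genes passed an adjusted p of 0.05 (limma on log2(RPKM + 1), Benjamini-Hochberg over 12652 tested genes), and the smallest adjusted p among them was 0.49. Of all genes tested, 0.0158% passed. At an unadjusted p under 0.05 limma counted 3 of the 38, all lower in null islets: Me1, Sucla2 and Pdha1. That share is to be read against 7.9% of all tested genes that were lower at the same level. The log2 differences of the 38, null minus wild type, ran from -0.26 to 0.11 with standard errors of 0.06 to 0.14. Every 95% interval lay within 0.5 on either side of 0. The lowest bound was -0.43, for Me1, a ratio of 0.741 on the RPKM + 1 scale, and the highest was 0.36, for Gapdh, a ratio of 1.28. A p above the threshold does not show that the levels were equal. Changes beyond these bounds lie outside the intervals of these genes, but only for log2(RPKM + 1) on the deposited scale. Adding 1 shrinks the differences of low genes, and with 0.1 added instead that of Me1 was -0.32.

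**Figure D1:**
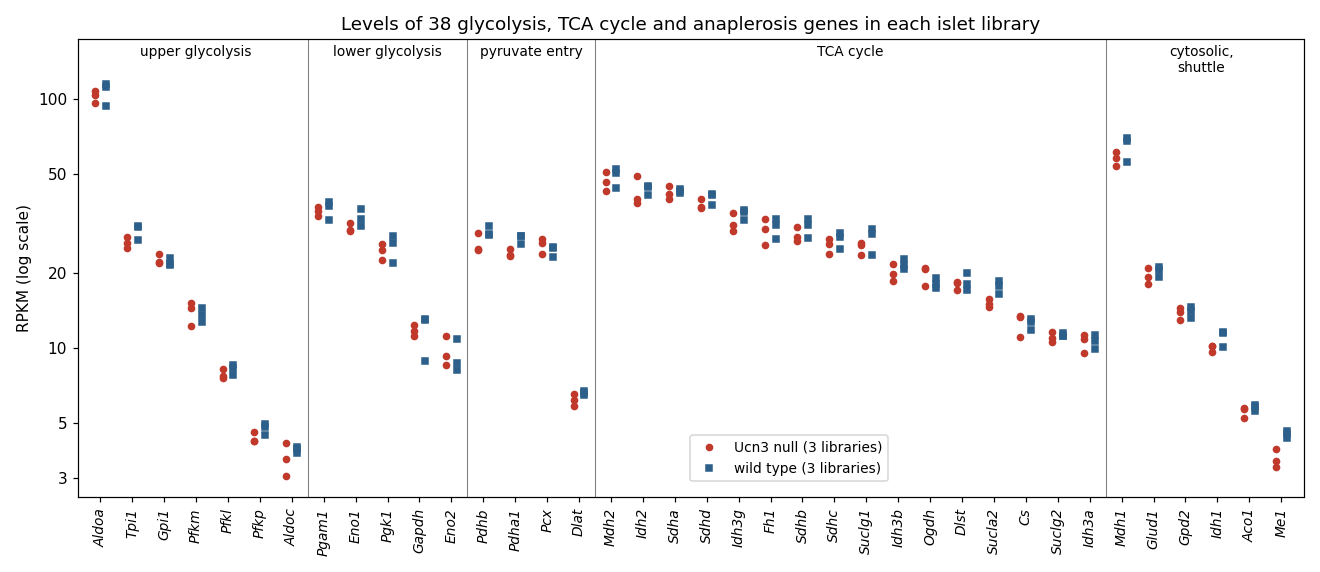
RPKM (log scale) of each of the 38 genes in the 3 Ucn3 null libraries (red circles, left of each pair) and the 3 wild-type libraries (blue squares, right), grouped by pathway step and ordered by mean within a group. Gene means run from 3.74 RPKM (Aldoc) to 105 RPKM (Aldoa), and the points of the 2 groups mix for 35 of the 38 genes.

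The libraries matched their labels. Ucn3 was at 1.61, 1.63 and 1.8 RPKM in null libraries and at 136, 157 and 155 RPKM in wild-type libraries (log2 difference -5.81, SE 0.08, limma adjusted p = 6.6e-08). Depth, estimated from the spacing of low values, was about 46450000 to 51560000 reads in null libraries and 42310000 to 48070000 reads in wild-type libraries. The gene with the fewest reads among the 38, Aldoc, then had about 268 reads in its lowest library, where counting alone gives an error of 6.11%. The 2 insulin genes held 45.8 to 50.1% of all RPKM in null libraries and 49 to 53.7% in wild-type libraries. Markers of acinar cells, the exocrine cells around islets, were unevenly present. The 35 acinar markers in the table summed to 35089, 20046 and 7089 RPKM in null replicates 1 to 3 and to 9504, 784 and 3652 RPKM in wild-type replicates 1 to 3. That is 7.53, 4.21 and 1.51% of all RPKM in null libraries against 2.02, 0.158 and 0.757% in wild-type libraries, and all 34 tested acinar markers had a positive difference, 0 of them past the threshold.

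Reads of some of these genes cannot be assigned with certainty. Set against all annotated mouse transcripts, 25 of the 38 transcripts had no stretch of at least 100 bases at 95% identity in another gene, and 13 had one. Gapdh, the enzyme that makes the first NADH of glycolysis, is the extreme case, with such stretches in 81 other annotated genes, 77 of them pseudogenes. The following 60 bases of the Gapdh transcript, positions 714 to 773, are shown because 2 of these pseudogenes, Gm10359 on chromosome 5 and Gm12671 on chromosome 4, repeat them without a change. They match Gapdh over all 1002 bases of its longest open reading frame, stop codon included. Only processed pseudogenes aligned over exactly this frame were considered, with 1 chromosome left out, so further copies may repeat the 60 bases too. Another copy, Gm12033 on chromosome 11, differs at 1 base of the 1002, which is in capitals in each line. The letters are from GENCODE M21.
Gapdh: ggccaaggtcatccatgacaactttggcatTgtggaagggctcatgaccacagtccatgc
Gm10359: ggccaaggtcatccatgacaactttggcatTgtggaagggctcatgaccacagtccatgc
Gm12671: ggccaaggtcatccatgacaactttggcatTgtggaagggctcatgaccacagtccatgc
Gm12033: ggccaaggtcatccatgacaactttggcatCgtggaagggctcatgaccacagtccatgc
The sources used here do not say how reads that match several genes were counted, so the level of Gapdh is uncertain. The other stretches that covered more than 50% of a transcript were those of Eno1 (85.6%), Pdhb (71.2%), Pgk1 (68.8%), Me1 (62.5%) and Gpi1 (55.3%). For Eno1 the copy is the gene Eno1b, listed in the table under its older name Gm5506. Gm5506 stood at 32.4, 37.9 and 33.9 RPKM in null libraries and 38.3, 40.1 and 40.5 RPKM in wild-type libraries, above Eno1 in each library. Its groups did not overlap, and it did not pass the threshold (log2 difference -0.19, SE 0.08, limma adjusted p = 0.53). For Pdha1 and Pfkp the shared stretch is an identical one in Map3k15 (18.5% of the Pdha1 transcript) and in Pitrm1 (18% of the Pfkp transcript), genes on the same chromosomes. Their values rest in part on reads that could belong to either gene.

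In the upper part of glycolysis, where glucose 6-phosphate is rearranged and split, 7 genes were measured, and 0 passed the threshold (smallest limma adjusted p 0.58). Their median log2 difference was -0.06, with 5 genes below 0 and 2 above, where 61.7% of all tested genes were below 0. Aldolase A, the product of Aldoa, splits fructose 1,6-bisphosphate and had the highest level of all 38 genes. Aldoa was at 96.7, 104 and 108 RPKM in null libraries and at 94.2, 115 and 112 RPKM in wild-type libraries. The lowest and the highest of these 6 values were both wild type. Aldoc, the aldolase best known from brain, was the lowest of the 38, at 3.06, 3.57 and 4.13 RPKM in null libraries and 3.9, 3.99 and 3.76 RPKM in wild-type libraries. Aldoa thus made up 96.6 ± 0.31% of the summed aldolase RPKM of Aldoa and Aldoc in null islets and 96.5 ± 0.40% in wild-type islets (SD, n = 3 each).

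Phosphofructokinase catalyses the committed step of glycolysis and is a tetramer of muscle-type, liver-type and platelet-type subunits. Pfkm, the muscle type, was at 12.2, 14.4 and 15.1 RPKM in null libraries and 12.7, 13.6 and 14.4 RPKM in wild-type libraries. Pfkl, the liver type, was at 7.58, 8.23 and 7.67 RPKM in null libraries and 7.77, 8.49 and 8.32 RPKM in wild-type libraries. Pfkp, the platelet type, was lowest, at 4.22, 4.23 and 4.59 RPKM in null libraries and 4.8, 4.46 and 4.92 RPKM in wild-type libraries. The order Pfkm over Pfkl over Pfkp held in each of the 6 libraries. Pfkm held 53.2 ± 2.26% of the summed RPKM of the 3 subunits in null islets and 51.2 ± 0.87% in wild-type islets, Pfkl 30.1 ± 1.86% and 30.9 ± 0.92% in null and wild-type islets, and Pfkp 16.7 ± 0.93% and 17.9 ± 1.11% in null and wild-type islets (SD, n = 3 each). All 3 shares overlapped between the groups. Gpi1, which isomerises glucose 6-phosphate, averaged 22.6 ± 1.08 RPKM in null islets and 22.1 ± 0.70 RPKM in wild-type islets (SD, n = 3 each). Tpi1, which interconverts the triose phosphates, had the smallest p of this stretch. It stood at 25.1, 26.3 and 27.9 RPKM in null libraries and 27.2, 31 and 30.5 RPKM in wild-type libraries, with null replicate 3 above wild-type replicate 1 (log2 difference -0.15, SE 0.08, limma adjusted p = 0.58).

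The 5 genes of the lower part, from glyceraldehyde 3-phosphate to phosphoenolpyruvate, had a median log2 difference of -0.03 and 0 calls (smallest limma adjusted p 0.67). Gapdh stood at 11.1, 11.7 and 12.4 RPKM in null libraries and 13, 12.9 and 8.84 RPKM in wild-type libraries, below its neighbours in the pathway on either side in each library. Its coefficient of variation over the 6 libraries, 13.4%, was the highest of the 38, with wild-type replicate 3 as the low value. Pgk1, which makes the first ATP of this stretch, averaged 24.5 ± 1.82 RPKM in null islets and 25.5 ± 3.19 RPKM in wild-type islets, and Pgam1, the mutase after it, 35.4 ± 1.58 and 36.2 ± 3.16 RPKM in null and wild-type islets (SD, n = 3 each). Eno1, the enolase found in most tissues, was at 29.6, 29.9 and 31.9 RPKM in null libraries and 31, 36.3 and 32.9 RPKM in wild-type libraries. Eno2, the enolase of neurons and neuroendocrine cells, was at 8.51, 9.27 and 11.1 RPKM in null libraries and 8.72, 8.16 and 10.8 RPKM in wild-type libraries. Eno1 was above Eno2 in every library. Its share of the summed RPKM of Eno1 and Eno2 was 76.1 ± 1.74% in null islets and 78.3 ± 3.14% in wild-type islets (SD, n = 3 each). That share leaves out Gm5506, which was above Eno1, and Eno3, a further enolase gene at 8.77 RPKM over all libraries.

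**Figure D2:**
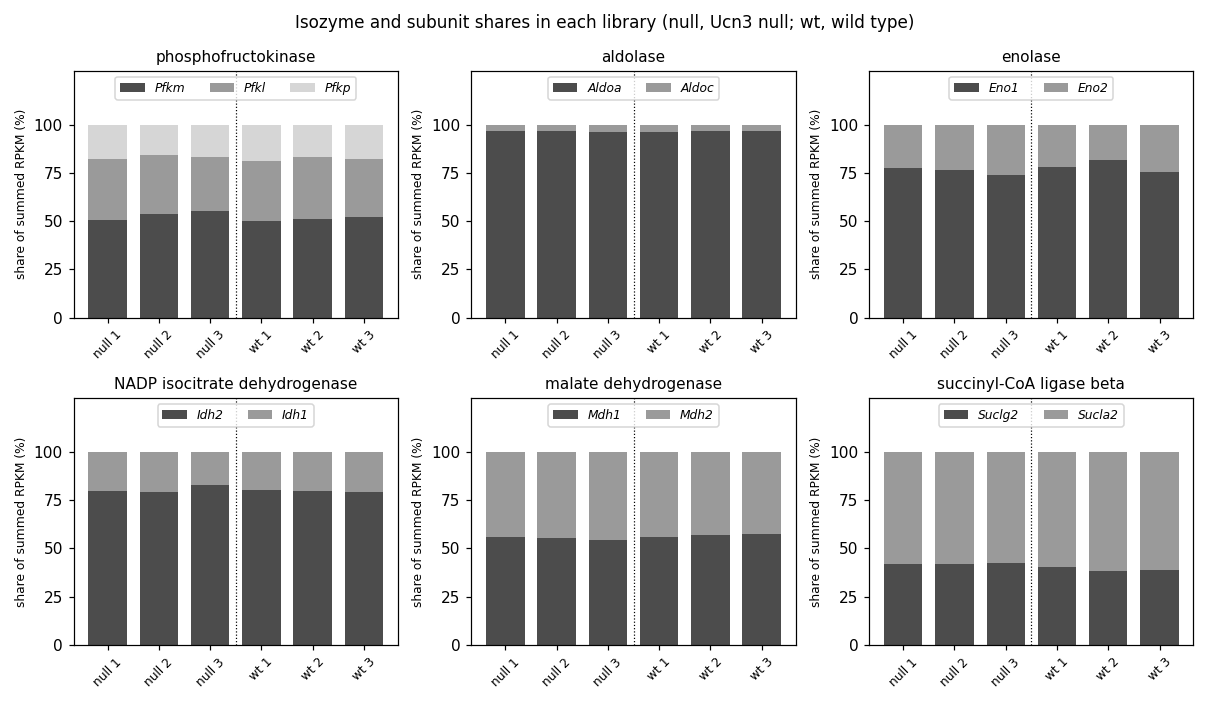
Share of each isozyme or subunit in the summed RPKM of its set (stacked bars, %), for null libraries 1 to 3 left of the dotted line and wild-type libraries 1 to 3 right of it. The leading form is the same in all 6 libraries of each set, with Aldoa at 96 to 96.9% of aldolase and Sucla2 at 57.4 to 61.8% of the succinyl-CoA ligase beta subunits.

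At the entry of pyruvate into mitochondria, 4 genes were measured. Pdha1 and Pdhb encode the alpha and beta subunits of the first enzyme (E1) of the pyruvate dehydrogenase complex and Dlat its second (E2). Pdha1 was at 23.7, 23.3 and 25 RPKM in null libraries and 26.1, 28.2 and 28.2 RPKM in wild-type libraries, so every null library was below every wild-type library. Its log2 difference was -0.19 (SE 0.07, 95% interval -0.35 to -0.03, limma adjusted p = 0.49). Pdhb was at 24.8, 24.9 and 28.9 RPKM in null libraries and 28.3, 30.9 and 28.7 RPKM in wild-type libraries, where null replicate 3 fell among the wild-type values (log2 difference -0.16, SE 0.08, limma adjusted p = 0.59). The 2 E1 subunits were thus at like levels, while Dlat was at 6.15, 5.85 and 6.53 RPKM in null libraries and 6.57, 6.45 and 6.67 RPKM in wild-type libraries. Dlat held 11 ± 0.26% of the summed RPKM of Pdha1, Pdhb and Dlat in null islets and 10.4 ± 0.47% in wild-type islets (SD, n = 3 each), without overlap by a narrow margin. Pcx, pyruvate carboxylase, was at 23.8, 26.5 and 27.4 RPKM in null libraries and 23.1, 25.5 and 25.3 RPKM in wild-type libraries, with overlap (log2 difference 0.07, SE 0.08, limma adjusted p = 0.83). Over all 6 libraries Pcx averaged 25.3 RPKM and Pdha1 25.8 RPKM, so the anaplerotic entry and the E1 alpha subunit of the oxidative entry had like RNA levels per length.

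Inside the TCA cycle 16 genes were measured, with means from 10.6 to 47.8 RPKM. Their median log2 difference was -0.06, 14 were below 0 and 2 above, and 0 passed (smallest limma adjusted p 0.49). The count below 0 is to be read against 61.7% of all tested genes on this scale. Mdh2, the mitochondrial malate dehydrogenase that regenerates oxaloacetate, led them at 46.8 ± 4.31 RPKM in null islets and 48.9 ± 4.52 RPKM in wild-type islets (SD, n = 3 each). Cs, citrate synthase, which opens the cycle, had a log2 difference of 0.00 (SE 0.09), at 12.6 ± 1.35 RPKM in null islets and 12.5 ± 0.66 RPKM in wild-type islets (SD, n = 3 each). Idh2, the mitochondrial NADP-dependent isocitrate dehydrogenase, spread widely among null libraries, at 38.4, 39.6 and 48.9 RPKM, against 41.3, 44.9 and 44.5 RPKM in wild-type libraries. The NAD-dependent enzyme, whose alpha subunit carries catalysis, is built from the products of Idh3a, Idh3b and Idh3g. Idh3g held 51 ± 0.77% of their summed RPKM in null islets and 51.7 ± 0.99% in wild-type islets, Idh3b 32.1 ± 0.34% and 32.5 ± 1.69%, and Idh3a 16.8 ± 1.11% and 15.8 ± 0.70% in null and wild-type islets (SD, n = 3 each). Idh3g was at 29.6, 31.3 and 34.9 RPKM in null libraries and 32.7, 36 and 35.1 RPKM in wild-type libraries. Idh3b was at 18.6, 19.8 and 21.8 RPKM in null libraries and 21.6, 20.8 and 22.7 RPKM in wild-type libraries. Idh3a was at 9.5, 11.3 and 10.8 RPKM in null libraries and 9.84, 11.3 and 10.6 RPKM in wild-type libraries. The groups overlapped for all 3.

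Ogdh encodes the first enzyme of the oxoglutarate dehydrogenase complex and had the highest log2 difference of the 38, 0.11 (SE 0.08, 95% interval -0.08 to 0.31, limma adjusted p = 0.71). It was at 17.7, 20.8 and 20.9 RPKM in null libraries and 17.4, 18.1 and 19 RPKM in wild-type libraries, with null replicate 1 inside the wild-type range. Dlst, the second enzyme of that complex, was at 17.1, 18.2 and 18.4 RPKM in null libraries and 17, 18.1 and 19.9 RPKM in wild-type libraries. After it comes succinyl-CoA ligase, in which the common alpha subunit (Suclg1) pairs with an ADP-forming (Sucla2) or a GDP-forming (Suclg2) beta subunit. Sucla2 was at 15, 14.6 and 15.7 RPKM in null libraries and 16.5, 18.6 and 17.8 RPKM in wild-type libraries, with no overlap (log2 difference -0.21, SE 0.07, 95% interval -0.37 to -0.05, limma adjusted p = 0.49). Suclg2 overlapped, at 10.9, 10.5 and 11.6 RPKM in null libraries and 11.2, 11.5 and 11.2 RPKM in wild-type libraries, and had the lowest coefficient of variation of the 38, 3.49%. The Sucla2 share of both beta subunits was 57.9, 58.1 and 57.4% in null libraries and 59.5, 61.8 and 61.3% in wild-type libraries, so the shares did not overlap. This share is a ratio within a library and does not depend on the scaling of libraries, but it was not tested. It rests on the same Sucla2 values, which already did not overlap. No background over all genes was computed for it, nor for the shares of Dlat and Mdh1. The mix of cell types can still move such a ratio. Of the Suclg2 transcript 38.7% resembled another gene, with Gm15163, a pseudogene, at 98.9% identity. Suclg1 was at 23.7, 25.8 and 26.3 RPKM in null libraries and 23.7, 30.1 and 28.7 RPKM in wild-type libraries, with overlap.

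Succinate dehydrogenase, which is also complex II of the respiratory chain, has 4 subunits. Sdha, the flavoprotein, was at 39.6, 41.6 and 44.8 RPKM in null libraries and 41.8, 42.8 and 43.7 RPKM in wild-type libraries. Sdhb, the iron-sulphur subunit, was at 27.9, 26.8 and 30.5 RPKM in null libraries and 27.6, 33 and 31.2 RPKM in wild-type libraries. These 2 were apart in level in every library, and so were the membrane anchors. Sdhc was at 23.8, 26.2 and 27.3 RPKM in null libraries and 24.9, 29 and 27.9 RPKM in wild-type libraries, and Sdhd was at 36.8, 36.6 and 39.8 RPKM in null libraries and 37.5, 41.6 and 41.1 RPKM in wild-type libraries. All 4 had log2 differences between -0.10 and -0.03, and each share of the summed subunit RPKM overlapped between groups, Sdha for example at 30.9, 31.7 and 31.4% in null libraries and 31.7, 29.2 and 30.4% in wild-type libraries. Fh1, fumarase, averaged 29.7 ± 3.63 RPKM in null islets and 30.6 ± 2.89 RPKM in wild-type islets (SD, n = 3 each).

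The remaining 6 genes act in the cytosol, in the redox shuttles or on glutamate. All 6 had a log2 difference below 0, with a median of -0.10, where 61.7% of all tested genes were below 0. With equal totals without the acinar markers the differences were 0.03 for Aco1, 0.06 for Gpd2 and 0.02 for Glud1. They were -0.05 for Idh1, -0.07 for Mdh1 and -0.19 for Me1 under that setting. Me1 encodes cytosolic malic enzyme, which turns malate back into pyruvate and makes NADPH. It was at 3.91, 3.49 and 3.32 RPKM in null libraries and 4.33, 4.61 and 4.48 RPKM in wild-type libraries. The groups did not overlap, and Me1 had the smallest p of the 38 (limma unadjusted p = 0.0082, a model across all genes and not an exact test), with a log2 difference of -0.26 (SE 0.07, 95% interval -0.43 to -0.09, limma adjusted p = 0.49) and a ratio of mean RPKM, null over wild type, of 0.799. It was also one of the 3 genes under 5 RPKM. Mdh1, the cytosolic malate dehydrogenase of the malate-aspartate shuttle, had the second highest level of the 38, at 54, 57.8 and 61.5 RPKM in null libraries and 56, 70 and 67.8 RPKM in wild-type libraries (log2 difference -0.15, SE 0.10, limma adjusted p = 0.69). Its share of the summed RPKM of Mdh1 and Mdh2 was 55.9, 55.4 and 54.6% in null libraries and 56.1, 57.2 and 57.4% in wild-type libraries, which did not overlap by a narrow margin. Idh1, the cytosolic counterpart of Idh2, was at 9.6, 10.2 and 10.2 RPKM in null libraries and 10.1, 11.5 and 11.6 RPKM in wild-type libraries. Idh2 held 80.7 ± 1.75% of their summed RPKM in null islets and 79.8 ± 0.53% in wild-type islets (SD, n = 3 each). Gpd2, the mitochondrial glycerol 3-phosphate dehydrogenase that islets are known to hold in high amounts, averaged 13.8 ± 0.85 RPKM in null islets and 14 ± 0.70 RPKM in wild-type islets. Glud1, glutamate dehydrogenase, averaged 19.4 ± 1.46 and 20.3 ± 0.93 RPKM, and Aco1, cytosolic aconitase and iron regulatory protein, 5.55 ± 0.28 and 5.73 ± 0.15 RPKM in null and wild-type islets (SD, n = 3 each).

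**Figure D3:**
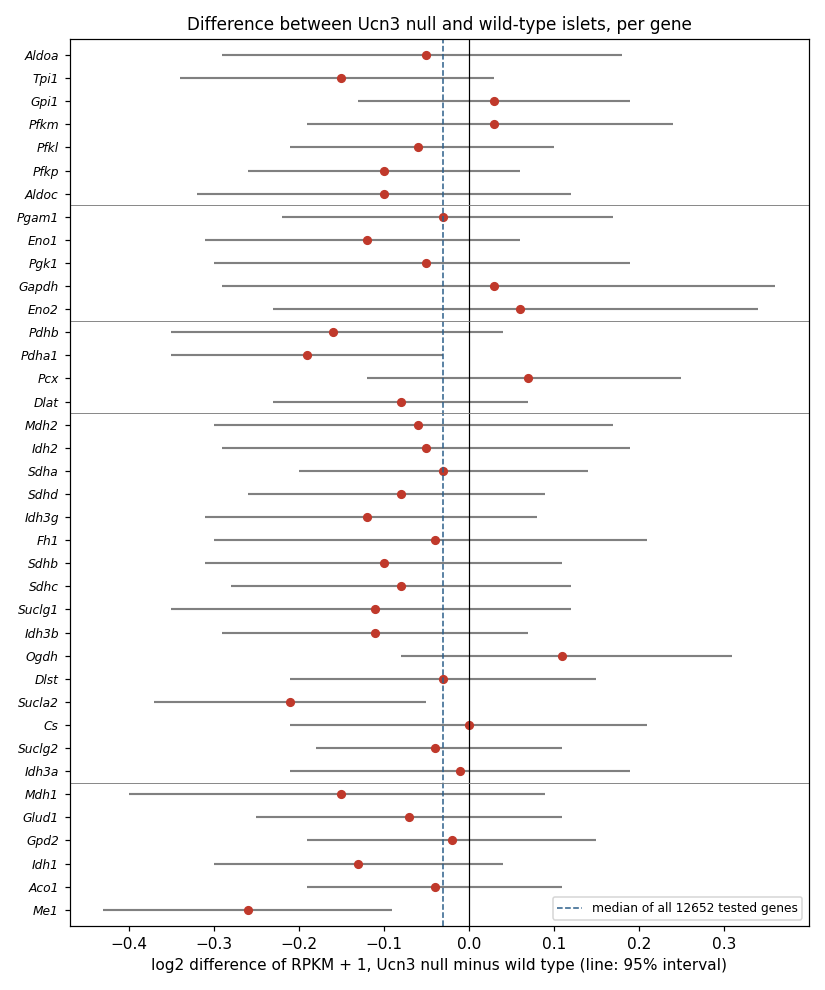
Log2 difference of RPKM + 1, Ucn3 null minus wild type, of each of the 38 genes (points) with its 95% interval (lines) from limma, in the same order as the plot of levels, and the median of all 12652 tested genes (dashed line, -0.03). Points run from -0.26 (Me1) to 0.11 (Ogdh), and the interval leaves out 0 for Me1, Sucla2 and Pdha1.

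Groups that did not overlap were seen for the same 3 genes, Me1, Sucla2 and Pdha1, each lower in null islets, and for 0 genes in the other direction. Among all tested genes 13.2% did not overlap and were lower, and 1.9% did not overlap and were higher, so 3 of 38 is no larger than that background. With 3 libraries in each group an exact two-sided permutation test of 1 gene cannot go below p = 0.1. In 15 alternative ways of processing, 0 of the 38 passed in any of them, and the differences of Me1, Sucla2 and Pdha1 kept their sign in each alternative in which they were tested. Their adjusted p in limma lay between 0.3 and 0.97 there. The number of genes at an unadjusted p under 0.05 was 7 without wild-type replicate 1. It was 1 without null replicate 2 and also 1 when either of the other wild-type replicates was left out. It was also 1 when acinar level entered the model.

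The upstream sequences of Me1, Sucla2 and Pdha1 are given because these are the genes with the smallest p. Each line holds the 120 bases before the annotated start, 5′ to 3′ on the gene's strand, from RefSeq on build GRCm38.p6, at chr9:86695915-86696034 (minus strand), chr14:73552666-73552785 (plus strand) and chrX:160138431-160138550 (minus strand). Capitals mark GC boxes, the letters GGGCGG on either strand.
Me1: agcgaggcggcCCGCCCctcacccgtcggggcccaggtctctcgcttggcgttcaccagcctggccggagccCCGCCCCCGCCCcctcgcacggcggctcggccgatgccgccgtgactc
Sucla2: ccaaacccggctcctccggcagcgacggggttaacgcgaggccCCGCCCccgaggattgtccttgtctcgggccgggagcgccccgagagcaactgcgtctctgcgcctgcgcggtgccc
Pdha1: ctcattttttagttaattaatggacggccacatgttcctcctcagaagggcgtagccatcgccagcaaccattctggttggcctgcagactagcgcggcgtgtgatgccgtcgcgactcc
Me1 held 3 GC boxes in this window, Sucla2 1 and Pdha1 none. Promoter sequences were found for 36 of the 38 genes, not for Sdhc and Idh3a. Within 250 bases upstream of any annotated start, 25 of the 36 held a GC box, a motif of many broadly expressed genes, and 17 held CCAAT on either strand. The core of the hypoxia response element, ACGTG on either strand, was in 12 of the 36. These were Aldoa, Pfkm, Pgk1, Pgam1, Pdhb, Pcx, Idh3g, Ogdh, Sdha, Mdh1, Me1 and Gpd2. For Me1 the match lies at another annotated start than the one printed above, whose 250 upstream bases held only the GC box. Of 32851 mouse promoters of the same length, 32.7% held the GC box, 33.8% CCAAT and 16.6% ACGTG. Counted by gene, as for the 36, the shares were 35.4% for the GC box, 37.5% for CCAAT and 18.5% for ACGTG over 27025 genes. The 36 genes held 53 of these promoters, and a gene with several starts has more chances of a match. A match of letters is not a bound site.

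The direction of the small differences moved with the scaling of the libraries. On the deposited scale 31 of the 38 genes (81.6%) had a difference below 0, against 61.7% of all tested genes, with medians of -0.06 for the 38 and -0.03 for all. When libraries were set to equal totals without the acinar markers, 14 of the 38 (36.8%) were below 0, against 36.6% of all genes, and the median of the 38 was 0.023. With median-ratio factors the count was 24 of 38 (63.2%), against 47.9% of all genes. With the mean level of the acinar markers as a model term it was 11 of 38 (28.9%), against 55.9% of all genes, with a median of 0.040. Leaving out null replicate 1, the library with the most acinar RNA, left 23 of 38 below 0. Me1, Sucla2 and Pdha1 were below 0 in each of these. The 7 genes not below 0 on the deposited scale were Gpi1, Pfkm, Gapdh, Eno2, Pcx, Cs and Ogdh, with differences of 0.00 to 0.11.

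**Figure D4:**
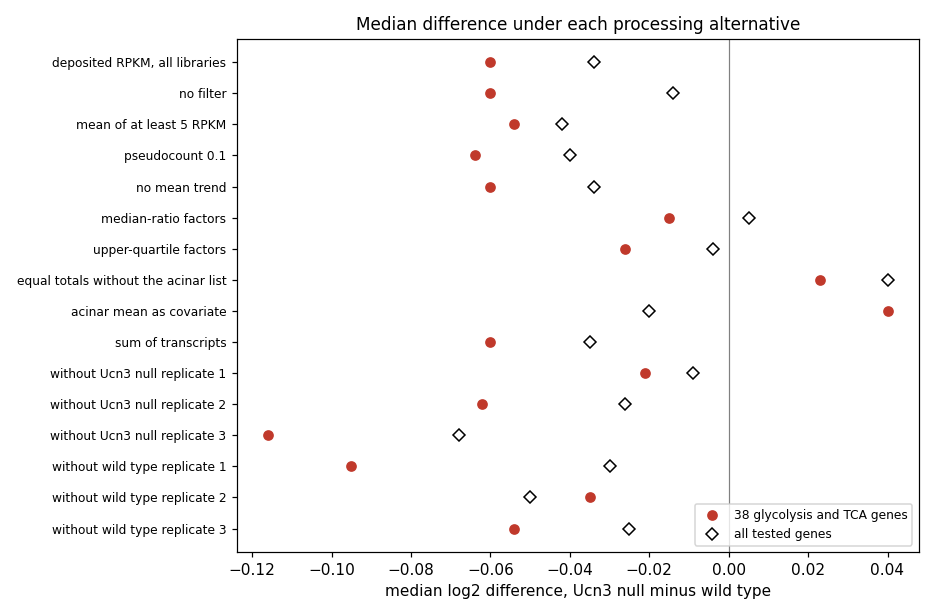
Median log2 difference, Ucn3 null minus wild type, of the 38 genes (filled circles) and of all tested genes (open diamonds) under the deposited scale and 15 alternatives, 1 per line. The median of the 38 lies between -0.116 and 0.040, and is above 0 with equal totals without the acinar list and with the acinar mean as covariate.

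The summed RPKM of the 38 genes was 847, 902 and 958 in null replicates 1 to 3 and 880, 992 and 976 in wild-type replicates 1 to 3, so the groups overlapped. Null replicate 1 held the lowest of the 6 values for 20 of the 38 genes and wild-type replicate 2 the highest for 18. These were also the libraries with the highest and the lowest acinar share of RPKM, 7.53% and 0.158%. The part of acinar RNA in these sums was not tested. The ratio of summed glycolysis RPKM to summed TCA cycle RPKM, which does not depend on scaling, was 0.712, 0.707 and 0.694 in null libraries and 0.689, 0.708 and 0.701 in wild-type libraries. These 6 values mixed between the groups.

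**Figure D5:**
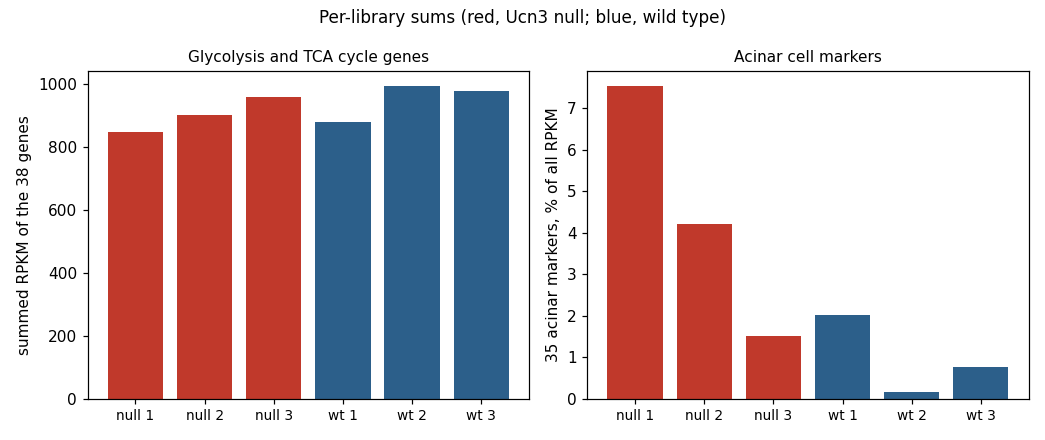
Left, summed RPKM of the 38 genes in each library, between 847 (Ucn3 null replicate 1) and 992 (wild-type replicate 2). Right, the 35 acinar markers as a percentage of all RPKM in those libraries, between 0.158% (wild-type replicate 2) and 7.53% (Ucn3 null replicate 1), with Ucn3 null in red on the left of each panel and wild type in blue.

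As a group the 38 genes were well expressed and steady. Their gene means had a median of 21.6 RPKM, against 6.24 RPKM over all tested genes, and 34 of the 38 were above that median of all genes. The median coefficient of variation over the 6 libraries was 7.7%, against 9.57% over all tested genes, and 29 of the 38 were below that value. The coefficient of variation of genes with few reads includes more counting error, so these 2 facts are not independent. When the genes were ordered by mean, the ranges of neighbours overlapped in 32 of 37 pairs. The 5 gaps without overlap lay below Aldoa, Mdh1, Sucla2, Pfkl and Aco1.

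Other genes of the same reactions gave no calls either. Of 82 genes in 8 further lists 62 were tested, and 0 passed in either direction. A difference below 0 was found for 37, to be read against 61.7% of all tested genes. The groups did not overlap for 7 of the 62. Of these 6 were lower in null islets (Brp44, Fbp1, Hif1a, Gpt, Slc25a10 and Taldo1) and 1 higher (Pdk3, a kinase that inhibits pyruvate dehydrogenase). Among all tested genes 13.2% did not overlap and were lower and 1.9% were higher, so neither count exceeds that background. That background covers tested genes only, so there is none for the 15 genes too low to be tested. Of those 15, 1 did not overlap. It was Gls2, at 1.43, 1 and 1.1 RPKM in null libraries and 0.756, 0.584 and 0.731 RPKM in wild-type libraries. Pdk3 was at 4.07, 4.02 and 3.99 RPKM in null libraries and 3.94, 3.7 and 3.92 RPKM in wild-type libraries (log2 difference 0.05, SE 0.06, limma adjusted p = 0.84). Among genes of glucose entry, Slc2a2, the glucose transporter of beta cells, was at 171, 145 and 159 RPKM in null libraries and 171, 148 and 172 RPKM in wild-type libraries. Slc2a1, another glucose transporter, had the smallest p of that list and averaged 2.82 ± 0.17 RPKM in null islets and 3.22 ± 0.46 RPKM in wild-type islets (SD, n = 3 each). Hk1 and Hk2, 2 hexokinase genes, were far lower than Slc2a2, with Hk1 at 1.25 RPKM and Hk2 at 0.0653 RPKM over all 6 libraries. Pkm, the pyruvate kinase of most tissues, was at 127, 142 and 147 RPKM in null libraries and 137, 143 and 139 RPKM in wild-type libraries. Its level was above that of each of the 38 genes, and Pklr, the liver type, averaged 4.09 RPKM.

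Ldha and Slc16a1 encode lactate dehydrogenase A and a lactate and pyruvate carrier, both known to be kept low in beta cells. Ldha was at 3.18, 3.73 and 3.35 RPKM in null libraries and 5.01, 4.19 and 3.37 RPKM in wild-type libraries, with overlap (log2 difference -0.22, SE 0.12, limma adjusted p = 0.61). Slc16a1, at 0.277, 0.159 and 0.184 RPKM in null libraries and 0.417, 0.35 and 0.172 RPKM in wild-type libraries, was too low to be tested. The 2 genes of the mitochondrial pyruvate carrier, listed as Brp44l and Brp44, averaged 29.9 and 16.8 RPKM over all libraries. Brp44 did not overlap, at 16.5, 15.6 and 15.8 RPKM in null libraries and 17.5, 18.3 and 17.2 RPKM in wild-type libraries (log2 difference -0.14, SE 0.06, limma adjusted p = 0.54). Of the pyruvate dehydrogenase partners and regulators all 9 were tested, with a median of 0.05. Dld, the third enzyme of the complex, averaged 18.5 ± 1.0 RPKM in null islets and 20.6 ± 1.80 RPKM in wild-type islets, and Pdp1, a phosphatase that activates it, 1.85 ± 0.28 and 2.12 ± 0.07 RPKM in null and wild-type islets (SD, n = 3 each). Among the other TCA cycle enzymes Dhtkd1, at 1.95 ± 0.32 RPKM in null islets and 1.52 ± 0.20 RPKM in wild-type islets, and Ogdhl, at 20.6 ± 0.92 and 19.5 ± 1.64 RPKM in null and wild-type islets (SD, n = 3 each), had the smallest p, with limma adjusted p of 0.56 and 0.81. Fbp1, a gluconeogenic phosphatase, and Hif1a, the oxygen-regulated factor that drives many glycolytic genes, had the smallest p in the list of other glycolytic genes. Fbp1 averaged 1.12 ± 0.24 RPKM in null islets and 1.54 ± 0.06 RPKM in wild-type islets, and Hif1a 9.22 ± 0.46 and 10.1 ± 0.53 RPKM in null and wild-type islets (SD, n = 3 each), without overlap in either gene and with limma adjusted p of 0.52 and 0.64.

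Markers of other cell types differed between these libraries in more than the acinar list. Counts of markers below 0 are to be read against 61.7% of all tested genes on this scale. Delta cell markers summed to 745, 926 and 1148 RPKM in null libraries and 1808, 2257 and 2471 RPKM in wild-type libraries, without overlap. Most of each sum was 1 gene, Sst, at 643, 816 and 1035 RPKM in null libraries and 1676, 2117 and 2320 RPKM in wild-type libraries (limma adjusted p = 0.34). Of the 7 delta cell markers tested, 6 had a difference below 0, and their median log2 difference was -0.75. Ductal markers summed to 364, 290 and 278 RPKM in null libraries and 423, 426 and 324 RPKM in wild-type libraries, with 10 of 11 below 0. Beta cell markers summed to 230517, 255069 and 247397 RPKM in null libraries and 247127, 285771 and 270949 RPKM in wild-type libraries, and alpha cell markers to 6323, 8191 and 10587 RPKM in null libraries and 8825, 8327 and 9283 RPKM in wild-type libraries, both with overlap. The remaining 5 sums overlapped too. Macrophage and dendritic cell markers summed to 157, 222 and 187 RPKM in null libraries and 297, 219 and 168 RPKM in wild-type libraries, with 13 of 14 below 0 and a median log2 difference of -0.20. Red blood cell markers summed to 102, 444 and 167 RPKM in null libraries and 541, 588 and 111 RPKM in wild-type libraries, with 5 of 5 below 0 and a median of -0.65. Markers of PP cells had 2 of 2 below 0, those of endothelial cells 5 of 12 and those of stellate cells and fibroblasts 1 of 6. In none of the 10 marker lists did a gene pass the threshold, and in none was a marker at 0 in all libraries. The part of these cell types in the values of the 38 genes was not tested.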

How the data were processed

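Per the labels' protocols, islet RNA was extracted with Trizol, with a mention of a preceding cell sort, and sequenced as TruSeq libraries. The authors deposited 1 table of RPKM values whose rows are RefSeq transcripts. STAR, bedtools, DESeq and mouse build mm9 are named, without roles or versions, per the submitters' processing notes. How shared reads or strand were handled: not given in the sources used here. The table holds 28129 rows, of which 28011 could be used. All 6 value columns were mapped by sample title.

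Symbols with several rows were represented by the most abundant one. Of the 38 genes, 31 had 1 transcript row, and the other 12 transcripts of the remaining 7 had values proportional to the kept one within 3.3%, so they largely carry the same reads. Genes averaging at least 1 RPKM were tested with limma 3.58.1 in R 4.3.3 on log2(RPKM + 1), group as the only term, eBayes with a mean trend, Benjamini-Hochberg adjustment and a threshold of 0.05. Differences are null minus wild type and understate the change of low genes. The script was tested on simulated data. Depth was estimated from low values times GENCODE M21 transcript length (97.5% of rows matched), of which 77.3 to 78.8% came out whole within 0.1 read. Copies were searched with megablast. Intervals cover the spread between animals; counting errors cover sampling of reads only. Python 3.11.15 and matplotlib 3.10.9 drew the plots.

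The 38 genes, the lists and the tests were chosen with earlier results of these data known. All 38 genes are named, with each library's value for those with an unadjusted p under 0.05, without overlap, or in steps with several genes, and the 2 genes of smallest p in each further list plus Slc2a2, Pkm, Ldha and Slc16a1; some genes under this rule are not reported here. Acinar, delta, ductal, beta, alpha, PP, endothelial, stellate, macrophage and red blood cell markers were the 10 marker lists. Values of Hk1, Hk2, Pklr, Brp44l, Pdk3, Gm5506, Gls2, Eno3, Sst, G6pdx, Acly, Pck1 and Pck2 were chosen after they were seen.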

Additional observations from a re-analysis of the deposited data

How the results depend on the processing

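The count of 0 of the 38 genes past the threshold held in all 15 alternatives. Over all genes, 2 passed, against 4 without a filter, 1 with a mean of at least 5 RPKM, 1 with the acinar mean as covariate and 1 to 5 with 1 library left out (5 without null replicate 1, 1 without null replicate 2). A filter changes which genes are tested; the cause of the other changes was not tested. The 3 of 38 genes at an unadjusted p under 0.05 became 1 with the acinar covariate and 1 to 7 with 1 library left out. The 31 differences below 0 became 14 with equal totals without the acinar list, 11 with the acinar covariate and 23 to 35 with 1 library left out. Their median, -0.060, became 0.023, 0.040 and -0.116 to -0.021 in the same order.

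Summing all transcripts of a symbol counts shared reads several times and moved the isozyme shares by construction. In null and wild-type islets Pfkm then held 76.6 and 75.2%, Pfkl 15.1 and 15.7%, Pfkp 8.36 and 9.08%, Aldoa 98.8 and 98.7%, Aldoc 1.2 and 1.26%, Idh2 68.2 and 66.7%, and Idh1 31.8 and 33.3%. Over 57 single genes and their alternatives, 754 of 846 values kept their sign, 92 changed sign and 0 passed the threshold; 10 of the 38 genes kept their sign throughout. No paired analysis was possible because the labels hold no replicate numbers shared by the groups; the wild-type mice were littermates, but which animals shared a litter is not in the labels, so litter was not modelled. Depth limits the lowest gene, Aldoc, whose counting error reached 6.11%.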

Other observations

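Genes that branch off these pathways were measured in the same fit, and 0 of them passed the threshold. The 8 genes of the pentose phosphate pathway, which makes NADPH and ribose from glucose 6-phosphate, had a median log2 difference of -0.10. Of them 7 were below 0. Among all tested genes 61.7% were below 0 on this scale, and 13.2% did not overlap and were lower. Taldo1, transaldolase, did not overlap between the groups, at 23.4, 27.4 and 27.3 RPKM in null libraries and 27.8, 29.9 and 28.8 RPKM in wild-type libraries (log2 difference -0.14, SE 0.08, limma adjusted p = 0.63). Rpe, an epimerase of the same pathway, averaged 7 ± 0.49 RPKM in null islets and 7.75 ± 0.32 RPKM in wild-type islets (SD, n = 3 each). G6pdx, the first enzyme of the pathway, was at 6.06 RPKM over all 6 libraries. With equal totals without the acinar markers the log2 differences of Taldo1 and Rpe were -0.06 and -0.05.

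Among genes that move carbon in and out of the TCA cycle, 12 of 15 were tested, with a median of -0.04. Acly, ATP citrate lyase, which turns exported citrate into acetyl-CoA, was the most abundant of them, at 202, 249 and 215 RPKM in null libraries and 194, 211 and 214 RPKM in wild-type libraries. Slc25a10, the dicarboxylate carrier, averaged 1.39 ± 0.11 RPKM in null islets and 1.73 ± 0.19 RPKM in wild-type islets, without overlap (SD, n = 3 each, limma adjusted p = 0.55). Of the same genes Gpt was also lower in null islets without overlap, and Gls2, too low to be tested, was higher without overlap. Among all tested genes 13.2% did not overlap and were lower and 1.9% did not overlap and were higher. Those shares leave out genes as low as Gls2. Pck1, the cytosolic phosphoenolpyruvate carboxykinase, was at 0.044 RPKM over all libraries and Pck2, the mitochondrial one, at 15.8 RPKM. Among the 6 tested genes of the redox shuttles the median was 0.03. Gpd1, the cytosolic partner of Gpd2, averaged 6.81 ± 0.98 RPKM in null islets and 6.52 ± 0.66 RPKM in wild-type islets, and Slc25a22, a glutamate carrier, 7.77 ± 0.96 and 6.98 ± 0.87 RPKM in null and wild-type islets (SD, n = 3 each).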
